A study of Homo sapiens with 9 samples.

Results

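Interferon-stimulated genes are the set of genes that cells switch on when an interferon, a secreted antiviral cytokine, reaches them. A list of 39 such genes was followed here in HuCCT1 cells, an established line from a human cholangiocarcinoma (a cancer of the bile ducts), with and without a constitutively active YAP1. The members were chosen by gene symbol, with DDX58 under its present name RIGI, and 38 of the 39 have a probe set that names them alone, out of 19775 genes in all. STAT2 was not analysed here. The 38 genes are read by 63 probe sets, out of 54613 tested, and each gene is given at its brightest probe set over all arrays unless stated.

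Total RNA was measured on 9 single-colour arrays with a biotin label. Of these, 4 carried RNA of HuCCT1 cells transfected with an empty vector, and 5 carried RNA of HuCCT1 cells transfected with a vector for YAP1 S127A, an altered form of the transcriptional co-activator of the Hippo pathway. No interferon, other treatment, time point or promoter of the vector is named in the labels, and nothing in them says that the numbered samples came from separate cultures. The p-values therefore set the group difference against the variation among these samples, and that variation may be technical.

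Type I and type III interferons bind paired receptors at the cell surface, and the kinases JAK1 and TYK2 then pass the signal on. A complex that holds IRF9 binds the interferon-stimulated response element (ISRE) in the promoters of the target genes, while interferon gamma acts at a different element, the gamma-activated site (GAS). The products block viral entry, sense viral RNA, stop translation or degrade RNA, and some of them, such as USP18, switch the pathway off again. Epithelial cells can hold part of this set at a steady level without infection.

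The array medians lay between 5.95 and 5.98 log2 units, where a difference of 1 is a 2-fold change of signal. The gap between the 3' and the 5' actin control probe sets, a sign of RNA quality, was 0.98 to 1.69 in empty vector arrays and 0.89 to 1.58 in YAP S127A arrays. It was largest on empty vector replicate 3 and YAP S127A replicate 1. Keratins and other markers of bile duct epithelium (KRT7, KRT19, EPCAM, SOX9, CDH1) had mean log2 signals of 12.84 to 14.21 in both groups, with SOX9 lower (-0.25, adjusted p = 0.0182) and CDH1 higher (+0.24, adjusted p = 0.00882). Markers of leukocytes (4 genes), endothelium (3) and liver cells (3) lay between 2.88 and 6.65, and 7 of these 10 lay below the median of all probe sets, 5.96, in both groups. Of the 10, only CD14 was called at its brightest probe set, lower with YAP S127A (5.75 against 6.19). Among the 5 probe sets of PTPRC, 1 was called higher, and among the 5 of PECAM1, 3 were called lower. The part of these 10 genes in the results was not tested. Among 5 fibroblast markers, 4 lay below the median and COL1A1 was lower (7.51 against 8.21).

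The interferon-stimulated genes did not move as a block. The 4 genes of the IFIT family rose, by 1.62-fold to 3.60-fold, while more of the other members fell than rose. With limma and Benjamini-Hochberg adjustment over all probe sets, 6 of the 38 members were higher and 15 were lower with YAP S127A, and 17 did not pass, against 28.7% of all genes called either way. The share called higher, 15.8%, was close to that of all genes, 14.5%, and the share called lower was 39.5% against 14.2% of all genes. In 6 members every YAP S127A array lay above every empty vector array, and in 12 every one lay below. Over all genes, 14.5% were separated upwards and 13.8% downwards. Outside the IFIT family, 2 of 34 members rose and 15 fell, and the median log2 difference was -0.16, against 0.0048 over all genes. With a difference of at least 0.5 besides, 4 members were higher and 8 lower, against 6.57% and 5.67% of all genes. Differences are on the log2 scale, YAP S127A minus empty vector, with their standard error (SE). Because these are bulk samples, a lower level may mean fewer cells with a transcript or less of it per cell, and these cannot be told apart.

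Per array, the median of the 34 members outside the IFIT family lay between -0.04 and -0.24 in YAP S127A cells, relative to the empty vector mean, and between -0.03 and 0.05 in empty vector cells. The value nearest to the controls (-0.04) was that of YAP S127A replicate 1, the array with the larger actin gap of its group. For the IFIT genes the same median ran from 1.06 to 1.20 in YAP S127A cells, and from -0.07 to 0.04 with the empty vector. Without empty vector replicate 3 and YAP S127A replicate 1, 4 members were called higher and 12 lower. The share of all genes called without both arrays is not given here, so these counts describe the members alone. The calls lost without both arrays were those of IRF9 (+0.23, adjusted p = 0.0892), OAS1 (-0.28, adjusted p = 0.0916), MX1 (+0.23, adjusted p = 0.0779), MX2 (-0.62, adjusted p = 0.0783) and DTX3L (-0.18, adjusted p = 0.0717). Members varied within a group about as much as other genes did. The median SD of a member was 0.12 against 0.11 over all genes with the empty vector, and 0.13 against 0.12 with YAP S127A.

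**Figure D1:**
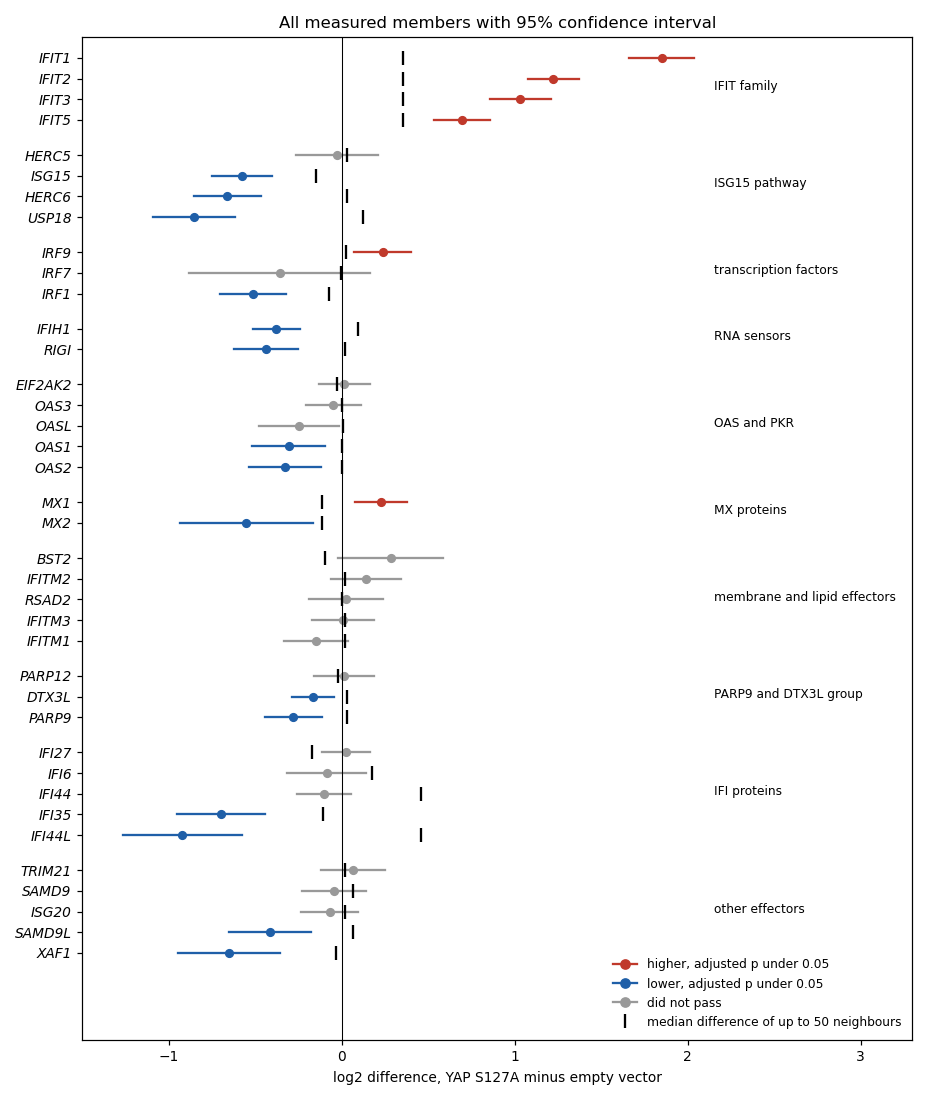
Log2 difference of each of the 38 measured interferon-stimulated genes (x axis, YAP S127A minus empty vector), grouped by role, with bars for the 95% confidence interval and a black tick for the median difference of up to 50 neighbouring genes. The 4 IFIT genes lie on the right, from 0.69 (IFIT5) to 1.85 (IFIT1), while most coloured points of the other groups lie left of 0, down to -0.92 (IFI44L).

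The IFIT genes encode proteins that bind viral RNA and block its translation, and they lie side by side on chromosome 10. Their promoters are shown because the 4 genes moved together, and that of ISG15, a standard readout of the interferon response that moved the other way, is set beside them. Each stretch holds the 160 bases before the first annotated start of the gene, 5' to 3' on the plus strand, from the RefSeq annotation of GRCh38.p14. They lie at chr10:89392463-89392622 for IFIT1, chr10:89327837-89327996 for IFIT3 (the first of 2 starts), chr10:89414408-89414567 for IFIT5 and chr1:1013337-1013496 for ISG15. Capitals mark each match to the ISRE core, which is GAAA, any 2 bases and GAAA again, on either strand, where TTTC is the same letters read from the minus strand.
IFIT1: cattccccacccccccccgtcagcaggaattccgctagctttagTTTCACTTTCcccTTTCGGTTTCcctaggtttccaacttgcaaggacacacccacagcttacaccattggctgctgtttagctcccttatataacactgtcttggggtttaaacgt
IFIT3: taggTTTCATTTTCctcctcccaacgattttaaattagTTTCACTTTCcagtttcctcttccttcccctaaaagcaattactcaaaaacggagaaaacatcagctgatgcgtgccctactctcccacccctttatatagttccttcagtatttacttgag
IFIT5: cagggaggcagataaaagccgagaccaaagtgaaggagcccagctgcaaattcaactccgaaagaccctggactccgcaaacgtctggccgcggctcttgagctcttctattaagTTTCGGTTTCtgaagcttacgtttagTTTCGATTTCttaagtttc
ISG15: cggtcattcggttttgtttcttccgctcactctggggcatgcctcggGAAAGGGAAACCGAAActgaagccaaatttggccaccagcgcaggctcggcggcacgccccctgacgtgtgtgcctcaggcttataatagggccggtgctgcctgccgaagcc

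IFIT1, IFIT3 and IFIT5 each hold 2 whole matches in these 160 bases, and IFIT5 has 1 more that runs across its start. ISG15 also holds 2 matches, and these overlap each other. The core thus stands before genes that rose and before a gene that fell. A match is a description of the letters, not evidence that the site is used in these cells.

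IFIT1, which binds capped RNA that lacks the methyl mark of the host cell, rose most. Its log2 signals with the empty vector were 8.86, 8.94, 8.74 and 9.17, and with YAP S127A they were 10.67, 10.82, 10.77, 10.88 and 10.74. The groups lay far apart, with the lowest YAP S127A array above the highest control. The difference was +1.85 (SE 0.09, adjusted p = 4.99e-08), or 3.60-fold. IFIT2, a partner of IFIT1 that can also drive cell death, was at 10.66, 10.80, 10.55 and 10.58 with the empty vector. With YAP S127A it was at 11.84, 11.92, 11.81, 11.93 and 11.86, again with no overlap and with less spread than the controls showed. It rose by 1.22 (SE 0.07, adjusted p = 1.69e-07), or 2.34-fold, and its other probe set rose by 0.97.

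IFIT3, which binds and stabilises IFIT1, had signals of 9.24, 9.37, 9.44 and 9.35 with the empty vector and of 10.40, 10.42, 10.59, 10.24 and 10.26 with YAP S127A. It rose by 1.03 (SE 0.08, adjusted p = 3.32e-06), or 2.05-fold, and its other probe set by 0.91. IFIT5, which binds RNA with a triphosphate end, was at 10.99, 11.11, 11.14 and 11.00 in control arrays. It was at 11.63, 11.68, 11.90, 11.72 and 11.85 with YAP S127A, above all controls. Its rise was 0.69 (SE 0.07, adjusted p = 3.43e-05) or 1.62-fold at the brightest probe set, and 0.92 at the other. The order of the rises was IFIT1, IFIT2, IFIT3 and IFIT5, but the 95% intervals of IFIT2 (1.08 to 1.37) and IFIT3 (0.85 to 1.21) overlap, as do those of IFIT3 and IFIT5 (0.53 to 0.86). All 7 probe sets of the 4 genes rose, and leaving out any array gave IFIT1 between 1.79 and 1.93.

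**Figure D2:**
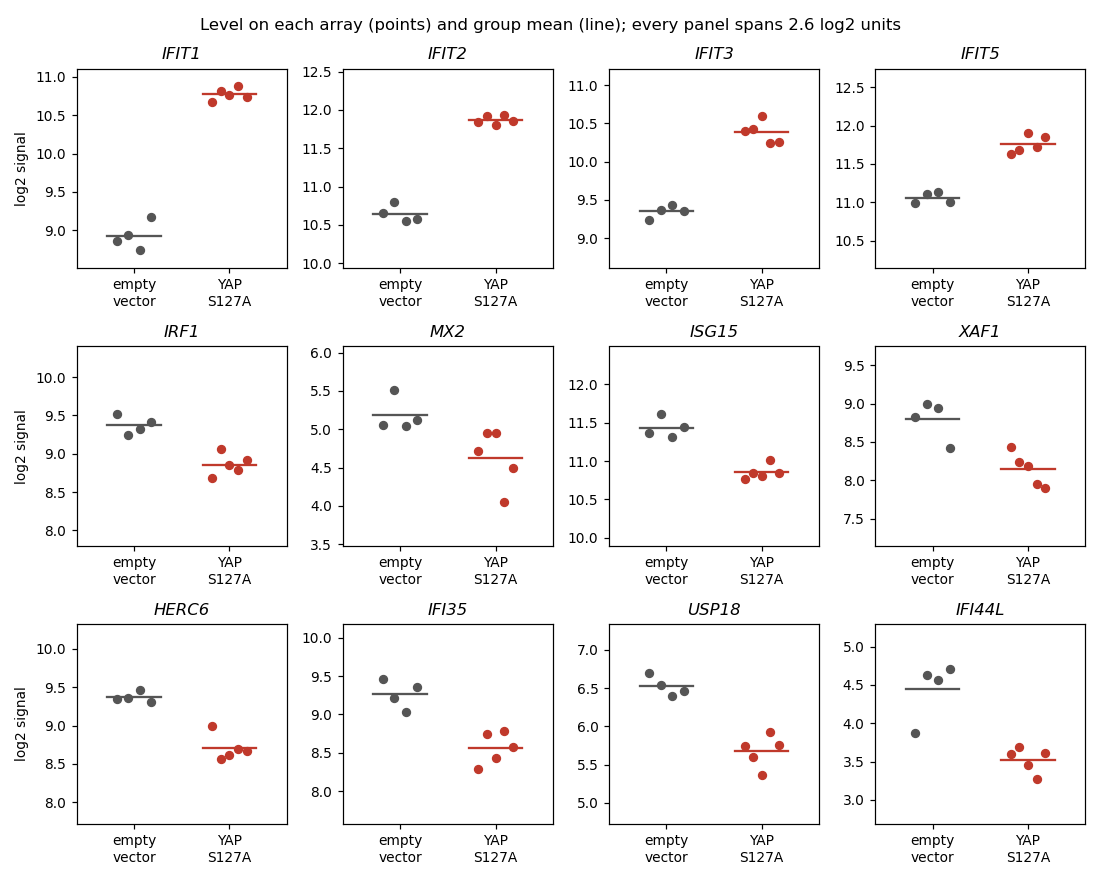
Log2 signal on each array (points, y axis) with the group mean (line) for the 12 members that passed with a log2 difference of at least 0.5, for 4 empty vector arrays (grey) and 5 YAP S127A arrays (red), every panel spanning the same height. The groups of IFIT1, IFIT2, IFIT3 and IFIT5 are separated upwards, the other 8 genes lie lower with YAP S127A, and only XAF1 among the 12 shows overlapping groups.

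Genes beside the IFIT cluster were higher as well. Among the 5 nearest genes before it with a signal above the median, LIPA, a lysosomal lipase, rose by 0.86 (SE 0.06), the death receptor gene FAS by 0.79, the actin gene ACTA2 by 0.89 and the deubiquitinase gene STAMBPL1 by 0.72, while ANKRD22 fell (-0.59). Of the 5 nearest after it, PANK1, LINC00865 and RPP30 rose by 0.51, 0.40 and 0.25, and KIF20B (-0.03) and HTR7 (-0.02) did not pass. These genes are named for their position alone. The rise of IFIT5 at its brightest probe set was thus no larger than that of 4 flanking genes, while those of IFIT1, IFIT2 and IFIT3 were larger than any of these.

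The median difference of up to 50 neighbours outside the interferon lists was +0.35, and that of the 10 nearest was +0.45. With the wider median subtracted on each array, IFIT1, IFIT2, IFIT3 and IFIT5 were higher by 1.50, 0.87, 0.68 and 0.34 (adjusted p = 3.59e-07, 3.63e-06, 4.09e-05 and 0.00362). With the median of the 10 nearest subtracted, an alternative added after seeing the data, they were higher by 1.40, 0.77, 0.58 and 0.25 (adjusted p = 2.48e-07, 2.27e-05, 0.000216 and 0.0412). The 4 calls held both ways, and the sizes shrank by more than 1.5 times for IFIT3 and IFIT5 with either median and for IFIT2 with the nearest neighbours. The cause of the shared shift was not tested.

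**Figure D3:**
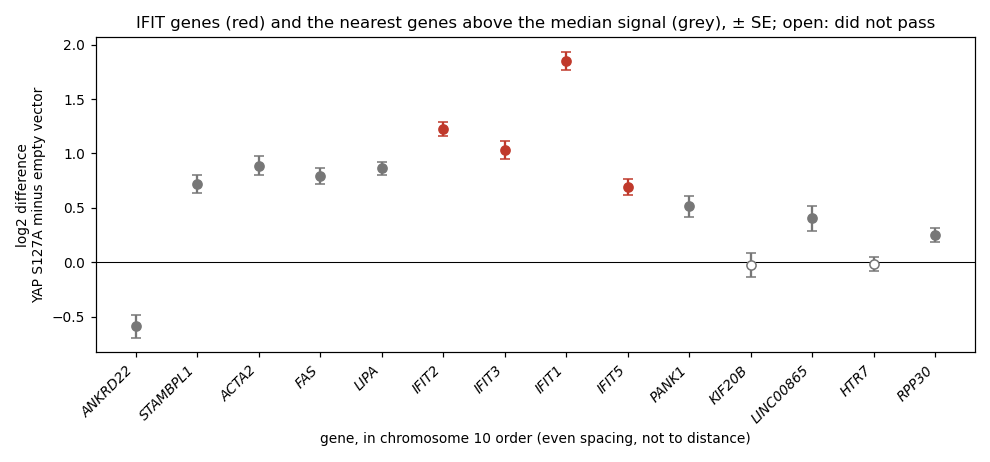
Log2 difference (y axis, YAP S127A minus empty vector, with SE) of the 4 IFIT genes (red) and, on either side, the 5 nearest genes with a signal above the median (grey), in their order on chromosome 10, evenly spaced, with open circles for genes that did not pass. IFIT1 stands above all others at 1.85, while IFIT5 at 0.69 lies at the level of STAMBPL1, FAS, LIPA and ACTA2 (0.72 to 0.89).

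Genes of the ISG15 pathway went the other way. ISG15, a ubiquitin-like protein that is attached to other proteins, was at 11.36, 11.62, 11.31 and 11.45 with the empty vector and at 10.77, 10.85, 10.80, 11.01 and 10.85 with YAP S127A. Every YAP S127A array lay below every control, and ISG15 fell by 0.58 on the log2 scale (SE 0.08, adjusted p = 0.00022), or 1.49-fold. Its neighbours lay lower as well, and the fall was 0.43 (adjusted p = 0.00373) with the median of up to 50 of them removed and 0.38 (adjusted p = 0.00915) with that of the 10 nearest. USP18, the protease that removes ISG15 and damps the interferon receptor, had control signals of 6.70, 6.54, 6.40 and 6.46. With YAP S127A these were 5.74, 5.60, 5.36, 5.92 and 5.75, so the groups did not overlap. USP18 fell by 0.85 (SE 0.11, adjusted p = 0.000128), or 1.81-fold, although its neighbours on chromosome 22 lay higher (+0.12).

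HERC6, of the same family of ubiquitin ligases as the human ISG15 ligase HERC5, was at 9.35, 9.36, 9.47 and 9.31 in controls and at 9.0, 8.57, 8.61, 8.70 and 8.67 with YAP S127A. All 5 treated arrays lay below the controls, with replicate 1 nearest to them, and the gene fell by 0.66 (SE 0.09, adjusted p = 0.000186). Its other probe set, at 3.28 in both groups, did not pass. HERC5 itself had mean signals of 3.28 ± 0.26 (SD, n = 4) and 3.26 ± 0.10 (SD, n = 5), under the lower quartile of every array (4.24 to 4.27), where a change can hardly be read. UBE2L6, the conjugating enzyme for ISG15 and not a member of the list, was also lower (-0.38, SE 0.07, adjusted p = 0.00222), though not with the median of its 10 nearest neighbours removed (-0.21, adjusted p = 0.0689).

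The transcription factors of the response were divided. IRF1, which interferon induces and which drives many of the same promoters, was at 9.52, 9.24, 9.32 and 9.41 with the empty vector and at 8.68, 9.06, 8.85, 8.79 and 8.92 with YAP S127A. The groups did not overlap, and IRF1 fell by 0.51 (SE 0.09, adjusted p = 0.00101). Its other probe set fell further (-1.19, SE 0.09, adjusted p = 1.78e-06), so the size depends on the probe set. IRF9, the DNA-binding part of the complex at the ISRE, rose by 0.24 (SE 0.08, adjusted p = 0.0403). That call was lost in 10 of 20 alternatives, among them without empty vector replicate 1, 2 or 4 or YAP S127A replicate 1, 2 or 4 (+0.20 to +0.25, adjusted p = 0.063 to 0.118), and after subtraction of the median of its neighbours (+0.21, adjusted p = 0.0726). IRF7, which amplifies the production of interferon, spread more than any other member in YAP S127A cells. Its signals were 8.38, 9.11, 9.16 and 8.72 with the empty vector and 9.13, 8.02, 7.95, 8.65 and 8.67 with YAP S127A, overlapping widely, and it did not pass (-0.36, 95% interval -0.88 to 0.16).

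Both RNA sensors were lower. RIGI, a helicase that detects viral RNA in the cytoplasm, had signals of 10.80 to 10.98 in the 4 controls and 10.27 to 10.67 in the 5 YAP S127A arrays, with no overlap. It fell by 0.44 (SE 0.08, adjusted p = 0.00242), and all 3 of its probe sets fell. IFIH1, the related sensor MDA5 for long double-stranded RNA, lay at 8.84 to 8.97 and at 8.42 to 8.59 in turn, and fell by 0.38 (SE 0.06, adjusted p = 0.000742). The other 2 probe sets of IFIH1 did not pass, and the call at the brightest held in all 20 alternatives, weakest (-0.19, adjusted p = 0.036) as the mean over its probe sets.

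Among the OAS family genes and EIF2AK2, 2 of 5 fell (40%, against 14.2% of all genes) and none rose (against 14.5%). OAS1 and OAS2, which make the oligoadenylates that switch on RNase L, fell by 0.31 (SE 0.10, adjusted p = 0.0386) and 0.33 (SE 0.10, adjusted p = 0.0264), with overlapping groups in both. A dimmer probe set of OAS2 fell further, by 0.59 (SE 0.11, adjusted p = 0.00157) and with no overlap, while its remaining probe set and the other of OAS1 did not pass. The call of OAS1 was lost without empty vector replicate 2 or 3 or YAP S127A replicate 2, 3 or 4 (-0.30 to -0.25), and that of OAS2 without empty vector replicate 2 or 4 or YAP S127A replicate 4 (-0.33 to -0.28). OAS3 (-0.05, 95% interval -0.21 to 0.11), OASL (-0.25, 95% interval -0.48 to -0.02) and EIF2AK2, which encodes the translation-blocking kinase PKR (+0.02, 95% interval -0.13 to 0.16), did not pass. OASL passed with the mean over its probe sets and without empty vector replicate 4 (-0.34, adjusted p = 0.0356). OAS1, OAS2 and OAS3 lie together on chromosome 12, where the neighbours' median difference was 0.00.

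The MX genes, neighbours on chromosome 21 that encode antiviral GTPases, were called in opposite directions. MX1 was at 7.64, 7.71, 7.57 and 7.48 with the empty vector and at 7.78, 7.93, 7.83, 7.87 and 7.74 with YAP S127A, just clear of each other. It rose by 0.23 (SE 0.07, adjusted p = 0.0304), a call that was lost without empty vector replicate 1, 3 or 4 or YAP S127A replicate 2 or 4 (+0.19 to +0.24). MX2 was at 5.06, 5.51, 5.04 and 5.12 and at 4.71, 4.95, 4.95, 4.05 and 4.49, below the median of all probe sets throughout. It fell by 0.55 (SE 0.17, adjusted p = 0.039), and 12 of 19 alternatives lost the call, including every array left out except YAP S127A replicates 2 and 3 (-0.60 to -0.41 where lost). Its 10 nearest neighbours had a median of -0.51, and with that removed MX2 was at -0.04 (adjusted p = 0.872). MX1 shares these neighbours, and the same step took it further up, to +0.74 (adjusted p = 1.23e-05). Removing the median of up to 50 neighbours put MX1 at +0.34 (adjusted p = 0.00184) and MX2 at -0.44 (adjusted p = 0.0711).

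None of the 5 membrane and lipid effectors passed, against 28.7% of all genes called either way, and so few genes say little as a group. IFITM1 (-0.15, 95% interval -0.33 to 0.04), IFITM2 (+0.14, 95% interval -0.06 to 0.34) and IFITM3 (+0.01, 95% interval -0.17 to 0.18), which keep viruses from fusing with endosomes, each had overlapping groups. These 3 genes are near copies, and their probe sets may read each other. BST2, or tetherin, which holds budding virus at the surface, differed by +0.28 (95% interval -0.02 to 0.58). RSAD2, or viperin, had mean signals of 5.07 and 5.10, below the median of all probe sets, and differed by +0.02.

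PARP9 and DTX3L, whose products form an ADP-ribosylating ubiquitin ligase, fell by 0.28 (SE 0.08, adjusted p = 0.0175) and 0.17 (SE 0.06, adjusted p = 0.0493), with no overlap between groups. The other probe set of PARP9 did not pass (-0.12, adjusted p = 0.371), and its groups overlapped. The small fall of DTX3L was lost without any of the 9 arrays (-0.18 to -0.15), and that of PARP9 without empty vector replicate 4 (-0.25, adjusted p = 0.0596). With the median of the 10 nearest neighbours removed, neither passed (-0.24 and -0.13). PARP12, a related enzyme, was at +0.01 (95% interval -0.16 to 0.19).

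Among the IFI genes, IFI35 and IFI44L fell. IFI35, a partner of NMI in cytokine signalling, was at 9.46, 9.22, 9.03 and 9.36 with the empty vector and at 8.29, 8.74, 8.43, 8.78 and 8.58 with YAP S127A. The groups did not overlap, and it fell by 0.70 (SE 0.12, adjusted p = 0.000871), or 1.63-fold. IFI44L was at 3.87, 4.63, 4.57 and 4.71 and at 3.60, 3.69, 3.45, 3.27 and 3.61, with empty vector replicate 1 just above the treated arrays. It fell by 0.92 (SE 0.16, adjusted p = 0.00107), the deepest fall of the 38 genes, but its YAP S127A level lies under the lower quartile of every array, so background bears on the size. IFI44, next to it on chromosome 1, had mean signals of 9.68 ± 0.07 (SD, n = 4) and 9.57 ± 0.10 (SD, n = 5) and did not pass (-0.10, adjusted p = 0.35). Neighbours of this pair lay higher by 0.46, and with that removed IFI44 was lower (-0.56, adjusted p = 0.000335). IFI6 (-0.09) and IFI27 (+0.02), whose small products sit in membranes, did not pass, and with the median of up to 50 neighbours removed they were called at -0.26 and +0.19. With that of the 10 nearest, IFI6 did not pass (-0.24, adjusted p = 0.0763) and IFI27 was at +0.36 (adjusted p = 0.00215).

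Of the remaining effectors, XAF1 and SAMD9L fell. XAF1, which opposes the apoptosis inhibitor XIAP, was at 8.83, 8.99, 8.94 and 8.42 with the empty vector and at 8.43, 8.24, 8.19, 7.95 and 7.90 with YAP S127A. Empty vector replicate 4 and YAP S127A replicate 1 met at about the same level, and the fall was 0.65 (SE 0.13, adjusted p = 0.00376). A second probe set fell by 0.81, and the third, at 3.33 and 3.37, did not pass. SAMD9L, a restriction factor of poxviruses, had control signals of 9.11 to 9.15, the tightest group of any member, against 8.48 to 9.07 with YAP S127A. It fell by 0.42 (SE 0.11, adjusted p = 0.015), and its other 2 probe sets fell by 0.65 each. SAMD9, its neighbour and close relative, did not pass (-0.05, 95% interval -0.23 to 0.14), nor did the exonuclease gene ISG20 (-0.07) or TRIM21 (+0.06), the antibody receptor of the cytosol.

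Several probe sets were available for 19 of the 38 members, and no member had probe sets called in opposite directions. Over the 63 probe sets, 9 were higher, 22 lower and 32 did not pass, against 23.9% of all probe sets called, 11.9% higher and 12% lower. Removing the median of up to 50 neighbours left 19 of the 21 member calls, took away 2 (IRF9 and MX2) and added 3 (IFI6, IFI27 and IFI44). Removing that of the 10 nearest took away the calls of OAS1, MX2, PARP9 and DTX3L, kept that of IRF9, and added IFI27 and IFI44.

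Promoter windows were found for 31 of the 38 members, and IFIT2, IFITM2, IRF7, MX2, OAS2, OASL and USP18 are among the members without one here. A window runs from 250 bases before to 50 bases after an annotated start, and a gene counts if any of its windows matches on either strand. The ISRE core was found in 23 of the 31 (74.2%) and in 4.38% of 27305 genes with a window (3.57% of windows). By outcome, it was in 4 of 5 members called higher, 5 of 12 called lower and 14 of 14 that did not pass. The GAS letters, TTC, any 3 bases and GAA, were in 8 of 31 members (25.8%), among them IRF1, IRF9 and OAS1, and in 9.38% of all genes. Where there is no match, these letters are simply not in this window.

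Other genes of the interferon pathway, grouped by role, also held more lower than higher calls. Of 95 measured genes that are not members, 9 rose (9.47%, against 14.5% of all genes) and 25 fell (26.3%, against 14.2%), with a median of -0.07. Most interferon genes were dim, with 16 of 18 below the median of all probe sets in both groups. IFNK, an interferon of epithelial cells, rose from 5.60 ± 0.11 (SD, n = 4) to 6.48 ± 0.21 (SD, n = 5), by 0.88 (SE 0.11, adjusted p = 7.92e-05). IFNE fell by 0.42 (SE 0.13, adjusted p = 0.0419), and IFNB1, at 2.93 and 3.18, did not pass. IFNA genes are near copies whose probe sets may read each other.

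Of 6 receptor genes, 3 fell, against 14.2% of all genes, and none rose. IFNGR1, the ligand-binding chain of the interferon gamma receptor, fell by 0.62 (SE 0.07, adjusted p = 6.38e-05), beside neighbours at -0.37, and IFNGR2 fell by 0.28 (SE 0.06, adjusted p = 0.00483). IFNAR1 fell by 0.23 at its brightest probe set, but another of its 4 probe sets was called higher. With the median of up to 50 neighbours removed, IFNGR1 was at -0.25 and passed (adjusted p = 0.0136), while IFNGR2 (-0.16) and IFNAR1 (-0.11) did not, and with that of the 10 nearest IFNGR1 did not pass either (-0.15, adjusted p = 0.125). IL10RB, a chain of the type III receptor, gained a call the other way (+0.22, adjusted p = 0.0355, and +0.28, adjusted p = 0.0174, in turn). None of 10 JAK-STAT transducers and inhibitors passed at its brightest probe set, against 28.7% of all genes called either way. Of the 5 probe sets of JAK1, 1 was higher, and of the 7 of PTPN2, 1 was higher and 2 were lower. JAK1 was at +0.17 (adjusted p = 0.144) beside neighbours at +0.51, and at -0.34 (adjusted p = 0.00629) with these removed. The feedback inhibitor SOCS1 was at -0.05 (adjusted p = 0.742), and at -0.34 (adjusted p = 0.00715) with its neighbours removed.

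Genes of nucleic acid sensing moved both ways, with 2 of 14 higher (14.3%, close to the 14.5% of all genes) and 4 lower (28.6%, against 14.2%). IRF5, a transcription factor of the Toll-like receptor pathway, rose by 0.62 (SE 0.06, adjusted p = 2.15e-05) at 1 of its 3 probe sets. The DNA sensor gene AIM2 fell by 0.95 (SE 0.10, adjusted p = 4.06e-05), TRAF3, an adaptor of antiviral signalling, by 0.43 (SE 0.07, adjusted p = 0.000515), and the kinase gene IKBKE by 0.47 (SE 0.12, adjusted p = 0.014). IKBKE (-0.22) did not pass with the median of up to 50 neighbours removed, nor did TRAF3 (-0.16) with that of the 10 nearest. Of 5 further IRF genes and their partners, IRF2BP2 was lower (-0.17, SE 0.06, adjusted p = 0.0473), but not once its neighbours were allowed for (+0.09, adjusted p = 0.273).

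A second list of 41 measured interferon-stimulated genes had 6 higher (14.6%, close to the 14.5% of all genes) and 15 lower (36.6%, against 14.2%), with a median of -0.20. The deepest change was in APOBEC3G, a DNA-editing restriction factor of retroviruses, which had signals of 8.16, 8.76, 8.10 and 8.22 with the empty vector and 5.63, 5.44, 4.99, 5.53 and 5.14 with YAP S127A. It fell by 2.96 (SE 0.16, adjusted p = 1.37e-07), or 7.79-fold, while its other probe set did not pass. TNFSF10, which encodes the death ligand TRAIL, fell by 1.60 (SE 0.07, adjusted p = 4.79e-08), or 3.04-fold, and all 3 of its probe sets were called lower. TRIM22, an antiviral ubiquitin ligase, and EPSTI1 rose by 0.70 (SE 0.09, adjusted p = 0.000137) and 0.61 (SE 0.08, adjusted p = 0.000203). Neighbours of EPSTI1 lay higher by 0.33, and it was at 0.28 with their median removed (adjusted p = 0.0179) and did not pass with that of the 10 nearest (0.19, adjusted p = 0.148).

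**Figure D4:**
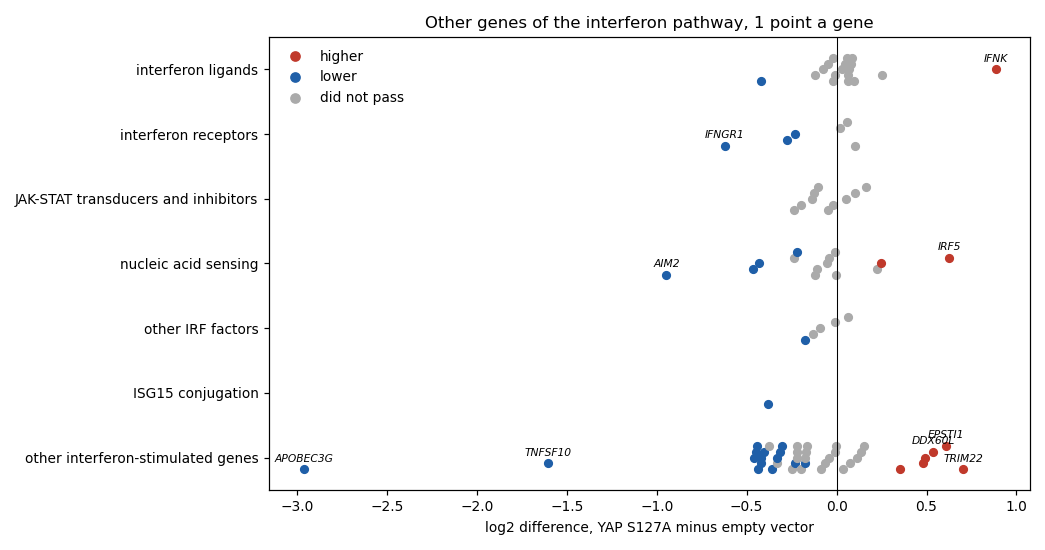
Log2 difference (x axis, YAP S127A minus empty vector) of 95 other genes of the interferon pathway by list, 1 point a gene, red for higher, blue for lower and grey for genes that did not pass. APOBEC3G (-2.96) and TNFSF10 (-1.60) lie far to the left, IFNK (0.88) is the ligand farthest to the right, and the JAK-STAT genes stay near 0.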

How the data were processed

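Total RNA of HuCCT1 cells was amplified, biotin-labelled and hybridised to 9 arrays. The range of the deposited values (1.62 to 14.96) marks them as log2 signals, 1 for each probe set, since no header states the unit. The background correction, normalization and summarisation by the authors were steps not given in the sources used here. Near-equal array medians show that the arrays had been scaled, and no further scaling was applied. There were 0 columns of other samples. Setting aside 62 control probe sets left 54613 for the test. In the platform annotation, 41091 have a single gene symbol, 1801 have several and 11721 have none. Of those with a single symbol, 41037 were matched by gene ID to the RefSeq annotation of GRCh38.p14 and took its symbol, whether or not it differed. A gene is read at its brightest probe set.

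The comparison used lmFit and eBayes of limma 3.58.1 in R 4.3.3, no covariate, and Benjamini-Hochberg adjustment over all probe sets at 0.05 (11.4 total degrees of freedom). Neighbours are up to 50 (at least 20) or 10 genes on the same chromosome with a signal above the median and in no interferon list. No build is named for the array, so the annotation gives gene order and promoters only. The number of arrays limits the precision.

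Named genes are all members by role, with array values for IFIT1, ISG15 and members that passed with a difference of at least 0.5, and up to 4 called genes of each pathway list by p-value. The genes beside IFIT were named by position, and JAK1, PTPN2, SOCS1, IL10RB, IFNB1 and the pair in the closing observations after their values were seen. The members and lists were chosen with earlier results of these data known. On simulated data for this comparison (54613 probe sets, 50 changed at each size), the test found 2% of changes of 0.25 on the log2 scale, 50% of 0.5, 98% of 1 and 100% of 2, and made 9 false calls. Alternatives were quantile normalization, median centring, no dim probe sets, trend and robust eBayes, array weights, the actin gap as covariate, each array left out in turn, a block for the replicate number, the mean over probe sets and the neighbours' median removed. Added after seeing the data were the median of the 10 nearest neighbours and leaving out both arrays of the largest actin gap. Python 3.11.15 and matplotlib 3.10.9 drew the plots.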

Additional observations from a re-analysis of the deposited data

Results flagged for a closer look

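Within-group spread was checked for each member in each group (76 groups), and 2 arrays stood apart from the rest of their group. At this threshold about 1 in 20 groups is picked out by chance. MX2 had a log2 signal of 5.51 on empty vector replicate 2, above the other 3 controls (5.04 to 5.12). Without that array MX2 was at -0.44 (adjusted p = 0.121 in limma). IFI44L had a signal of 3.87 on empty vector replicate 1, below the other 3 controls (4.57 to 4.71), and without that array its fall deepened to -1.11 (adjusted p = 2.58e-05 in limma).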

How the results depend on the processing

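Of the 21 member calls, 14 kept their direction and passed under every alternative run, namely those of IFIT1, IFIT2, IFIT3, IFIT5, ISG15, HERC6, USP18, IRF1, RIGI, IFIH1, IFI35, IFI44L, XAF1 and SAMD9L. The calls of IRF9, OAS1, OAS2, MX1, MX2, PARP9 and DTX3L were lost in 3 to 13 alternatives, and no called member changed direction. The number of members called higher ran from 4 to 7 and the number called lower from 11 to 16, and the pathway genes from 8 to 12 higher and from 17 to 27 lower, within 1.5 times of the main counts. Arrays of the same replicate number showed little shared variation, and the correlation of their deviations was -0.25, 0.04, 0.01 and 0.03. These values cannot show whether arrays of the same number shared a culture or a run. With the replicate number as a block, 4 members were higher and 11 lower. The share of all genes called under each alternative is not given here, so the counts in this paragraph describe the listed genes alone.

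Signs turned only in 8 members that did not pass, all close to 0. With single arrays left out, HERC5 ran from -0.1472 to 0.0416, EIF2AK2 from -0.0079 to 0.0448, IFITM3 from -0.0338 to 0.0527, RSAD2 from -0.0213 to 0.0961, PARP12 from -0.0233 to 0.0490, SAMD9 from -0.1043 to 0.0051 and TRIM21 from -0.0012 to 0.1048. OAS3 was at 0.0697 with all its probe sets averaged, and EIF2AK2 at -0.0057 with quantile normalization and -0.0007 with the replicate block. IFITM3 was at -0.0005 with median centring, -0.0120 with the neighbours' median removed and -0.0118 without both arrays of the largest actin gap. PARP12 was at -0.0228 with array weights, -0.0023 with the actin gap as covariate and -0.0194 without those 2 arrays, where TRIM21 was at -0.0260. With the median of the 10 nearest neighbours removed, HERC5 was at 0.0057 and TRIM21 at -0.0033. HERC5, MX2, RSAD2 and IFI44L have no value where dim probe sets were left out. Changes of 0.25, the smallest size simulated, were seldom recovered, though under a stricter cut than in the data. Small changes in members that did not pass may have been missed.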

Other observations

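DDX60 and DDX60L, neighbouring helicase genes on chromosome 4, were called in opposite directions. DDX60 had log2 signals of 9.58, 9.60, 9.62 and 9.45 with the empty vector and 9.44, 9.11, 9.18, 9.01 and 8.82 with YAP S127A, and fell by 0.45 (SE 0.11, adjusted p = 0.00922). DDX60L had signals of 11.14, 11.34, 11.54 and 11.15 and of 12.10, 11.82, 11.68, 11.81 and 11.73, and rose by 0.54 (SE 0.11, adjusted p = 0.00281). Both of its probe sets were called higher. The groups of each gene did not overlap. With the median of their 10 nearest neighbours removed, DDX60 was at -0.53 and DDX60L at 0.46, and both passed. The pair was chosen after its values were seen, and the difference between the genes was not tested.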
